A study of Mus musculus with 28 samples.

Results

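The 44 genes described here serve the secretory pathway of the cell, from the entry of new proteins into the endoplasmic reticulum (ER) to the stress response that adjusts its capacity. They were chosen by name from the 23382 gene symbols measured in mouse germinal center B cells, with the condition that a gene reach a CPM (its reads scaled to a common library total) of 1 in 3 or more libraries. All 44 met it, and all 44 passed the filter on low values in each comparison. The rule itself uses no difference between groups, but the members were chosen with earlier results of these data known.

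Germinal center B cells are antigen-activated B cells that proliferate in lymphoid follicles and give rise to memory B cells and antibody-secreting plasma cells. RNA sequencing covered 28 libraries in 6 genotype groups. Each group carries 1 Cg1Cre allele, which drives Cre recombinase from the immunoglobulin gamma-1 constant region locus and so acts in activated B cells, controls included. D370Y cells (5 libraries) are heterozygous for the Tbl1xr1 D370Y substitution and WT cells (3 libraries) have 2 unmutated copies. ImuBcl6 D370Y (5 libraries) and ImuBcl6 (5 libraries) repeat this contrast with the ImuBCL6 allele, in which Bcl6 is expressed from an immunoglobulin heavy-chain promoter. Libraries labelled KO (5) have the genotype Tbl1xr1(KO/KO), and their Cre control (5) shares its genotype label with WT but comes with a separate protocol text. The sources used here give neither age nor the number of animals nor their assignment to libraries, so p-values measure the spread between libraries, which may be technical. TBL1XR1 is a subunit of the SMRT/NCOR corepressor complexes through which BCL6 represses genes in germinal center cells.

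Proteins bound for secretion or for membranes are recognised while they are still being made, threaded through the translocon into the ER, and freed of their signal peptide. Chaperones and enzymes that form disulfide bonds then fold them, and products that fail are pulled back to the cytosol for degradation (ER-associated degradation, ERAD). When unfolded protein accumulates, the sensors IRE1 (Ern1), PERK (Eif2ak3) and ATF6 start the unfolded protein response. IRE1 splices the mRNA of Xbp1, the factor that expands the ER in plasma cells. This machinery is greatly expanded when a B cell becomes a plasma cell.

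The members fall into 7 roles. Targeting and translocation is represented by the signal recognition particle receptor (Srpr, Srprb), translocon subunits (Sec61a1, Sec61b, Sec61g) and the translocon-associated protein complex (Ssr1 to Ssr4), and signal peptidase by Sec11c, a catalytic subunit, with Spcs1, Spcs2 and Spcs3. The chaperones and co-chaperones are Hspa5 (BiP), Hsp90b1 (GRP94), Hyou1, Dnajb9, Dnajb11, Dnajc3, Sdf2l1, Manf and the lectins Calr and Canx. The disulfide isomerases are Pdia3, Pdia4, Pdia6 and Txndc5, beside the prolyl isomerases Fkbp2 and Fkbp11. ERAD is represented by Edem1, Edem2, Derl1, Derl2, Derl3, Herpud1, Sel1l and its ubiquitin ligase Syvn1. The 6 sensors and transcription factors are Ern1, Eif2ak3, Atf6, Atf4, Ddit3 (CHOP) and Creb3l2, and ER export is represented by Sec24d, a cargo adaptor of COPII vesicles.

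What several of these genes share is a promoter sequence, the ER stress element, which ATF6 binds together with NF-Y. It was searched as CCAAT, 9 bases of any sequence and CCACG, on both strands of the 250 bases before each gene's RefSeq start. Of the 44 members, 36 had a promoter in the RefSeq table used (GRCm38.p6), and 8 of the 36 (22.2%) held a full element, against 0.130% of 27025 genes. Hsp90b1 held 2 copies. The elements are shown with 5 flanking bases, read along the gene's own strand, because the element is the classical control sequence of this response and recurs across roles. Capitals mark the matched element.
Calr, chr8:84847070-84847098, minus strand: caacgCGTGGTCGACCCTCATTGGcccat
Canx, chr11:50325795-50325823, minus strand: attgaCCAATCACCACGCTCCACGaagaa
Derl3, chr10:75893237-75893265, plus strand: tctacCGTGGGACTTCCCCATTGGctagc
Dnajc3, chr14:118937822-118937850, plus strand: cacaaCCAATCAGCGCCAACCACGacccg
Hsp90b1, chr10:86705528-86705556, minus strand: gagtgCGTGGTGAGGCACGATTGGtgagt
Hsp90b1, chr10:86705633-86705661, minus strand: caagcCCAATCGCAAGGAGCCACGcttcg
Hspa5, chr2:34772020-34772048, plus strand: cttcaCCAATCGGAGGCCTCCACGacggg
Pdia6, chr12:17266486-17266514, plus strand: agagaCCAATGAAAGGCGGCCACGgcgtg
Syvn1, chr19:6046527-6046555, plus strand: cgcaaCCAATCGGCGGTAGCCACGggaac
Herpud1, element II, chr8:94386372-94386392, plus strand: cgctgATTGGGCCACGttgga
Herpud1, without the final base, chr8:94386406-94386428, plus strand: ctcagCCAATGGATGGCAGCCAC
Pdia4, without the final base, chr6:47813597-47813624, minus strand: accgaGTGGCAGCCCGTGATTGGtggtc
Pdia4 and Herpud1, whose levels are described below, had no full element in the bases searched, but both matched it without its final base, as did Pdia3 and Derl2. The Herpud1 match ended at the last base before the start, where the search ended, so its final base was not read. That shorter form was found in 12 of 36 members (33.3%) and in 0.374% of all genes. Herpud1 alone among the members also held the ER stress element II, searched as ATTGG, any base and CCACG on both strands, which 0.0370% of genes hold. The shared end alone, CCACG on either strand, was found in 72.2% of the members and 31.0% of genes. A match is a letter pattern and not a measured binding site. The Hspa5 element and the shorter Pdia3 and Derl2 matches lie inside the spans that GENCODE M21 gives to those genes.

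**Figure D1:**
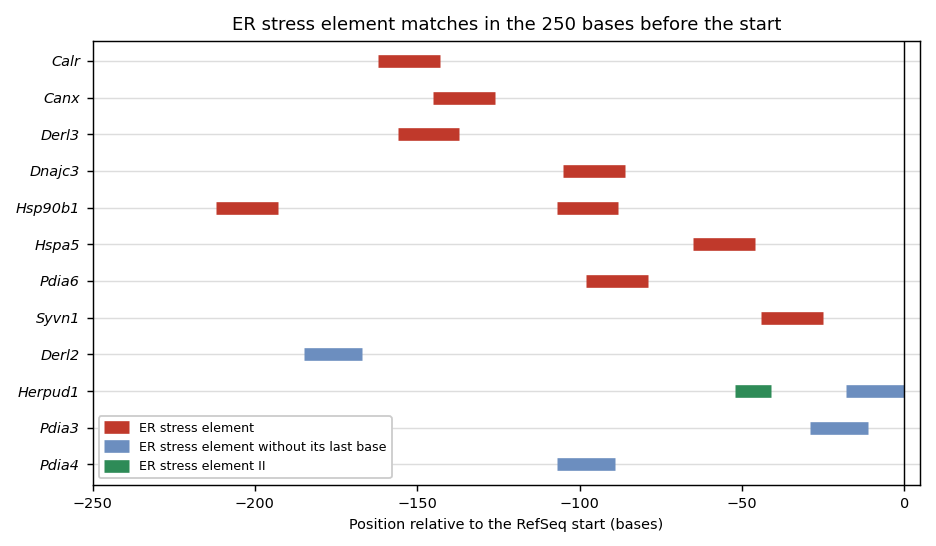
Matches to the ER stress element (red), to the element without its final base (blue) and to the ER stress element II (green) in the 250 bases before the RefSeq start of 12 members. The x axis is the position in bases relative to the start at 0. Full elements lie between 26 and 212 bases before the start, and both Herpud1 matches lie within 52 bases of it.

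Between 19.0 and 37.7 M reads per library fell on listed genes, a depth at which 3 reads correspond to 0.0640 to 0.133 CPM. Listed genes held 78.7 to 84.6% of the deposited denominator in all libraries but KO replicate 3, where they held 64.4%. A smaller share lowers the CPM of every listed gene in that library. The summed level of 4 Y-linked transcripts (Ddx3y, Uty, Kdm5d and Eif2s3y) exceeded that of Xist in 0 of 5 D370Y, 3 of 3 WT, 5 of 5 ImuBcl6 D370Y, 0 of 5 ImuBcl6, 3 of 5 KO and 1 of 5 Cre control libraries. It was at least 47.5 CPM in those libraries and at most 0.988 CPM in the others. In both D370Y comparisons genotype and sex cannot therefore be told apart, and the sex difference runs in opposite directions in them. The targeted gene, Tbl1xr1, measured 167.9 ± 10.2 CPM in the 3 WT libraries (mean ± SD, n = 3) and 145.6 ± 11.6 in D370Y (n = 5), 98.3 ± 2.43 in ImuBcl6 D370Y and 128.1 ± 20.6 in ImuBcl6 (n = 5 each). It was not lower in the libraries labelled KO (102.0 ± 15.4) than in the Cre control (86.0 ± 5.82; n = 5 each). The sources used here do not say which part of the gene the KO removes, so a level summed over the gene does not check that label. All 12 germinal center markers examined were detected in every group, with a summed level of 5491 to 8928 CPM.

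Abundance per length was highest, in WT, for a lectin, a disulfide isomerase and chaperones of the ER. In WT cells Calr, the calcium-binding lectin chaperone, led the members at 211 CPM per kb of exon, followed by Pdia3 at 204, Hspa5 at 148 and Hsp90b1 at 147. Calr led in each of the 6 groups, while the transcription factor Atf4 ranked 5 in WT and 2 in the Cre control and in the libraries labelled KO. Sec61g, Ern1, Creb3l2, Fkbp11 and Sec24d were the 5 lowest members in WT, at 0.417 to 2.46 CPM per kb. Together the 44 genes took 7647 to 8112 CPM in WT libraries, 7883 to 9221 in D370Y, 8209 to 8934 in ImuBcl6, 8696 to 10137 in ImuBcl6 D370Y, 6642 to 7331 in the Cre control and 5224 to 7284 in the libraries labelled KO. The last range has its low end in KO replicate 3. Expressed as a share of reads on listed genes, which does not depend on the denominator, that group held 0.794 to 0.861% and its control 0.814 to 0.881%.

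The comparison of D370Y with WT asks what 1 mutant copy of Tbl1xr1 does to these genes. No member passed the limma test (Benjamini-Hochberg adjusted p below 0.05 over all 10600 genes tested), where 3.55% of all genes were called in either direction. At an unadjusted p below 0.05 there were 11 members on the higher side (background 10.2%) and 2 on the lower (background 8.16%). Background here and below is the share of all genes tested that met the same rule. The fold changes were positive for 35 members and negative for 9, with a median log2 fold change of 0.10 over members and -0.02 over all genes, 45.6% of which were positive. The 2 count tests differed from limma, with 1 member called by edgeR's quasi-likelihood test (Hsp90b1) and 8 by DESeq2. Of the 10600 genes tested they called 358 and 659. All fold changes are differences of log2(CPM + 1), a scale on which changes of scarce genes appear smaller than they are, and the value after ± is the SE for a fold change and the SD for a CPM.

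The 3 members nearest the threshold were a chaperone, a prolyl isomerase and a sensor. Hsp90b1, the ER member of the HSP90 family, measured 771, 851, 799, 726 and 641 CPM in D370Y replicates 1 to 5 and 534, 641 and 600.0 in WT. The lowest D370Y library and the highest WT library lay side by side, and the other D370Y libraries were all above WT. The log2 fold change was 0.35 ± 0.09 (SE), with an adjusted p of 0.0564 in limma. Fkbp11, a prolyl isomerase typical of secretory cells, was low in both groups, at 3.54, 6.79, 6.33, 3.78 and 3.18 CPM in D370Y and 1.68, 2.32 and 2.84 in WT. The groups did not overlap, and the log2 fold change was 0.77 ± 0.21 (limma adjusted p 0.0709). Atf6, the sensor that is cut in the Golgi to release a transcription factor, measured 107, 115, 104, 99.6 and 123 CPM in D370Y and 89.1, 94.4 and 92.6 in WT, again without overlap, at a log2 fold change of 0.25 ± 0.07 (limma adjusted p 0.0948).

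By role, the translocation and signal peptidase genes were nearest to no change, with medians of 0.05 and 0.06 and no member at an unadjusted p below 0.05 by limma. All 6 isomerases had positive values, with a median of 0.25, among them Pdia4 at 0.45 ± 0.14 and Txndc5 at 0.33 ± 0.13. Of the 8 ERAD genes 6 were positive, and Edem1, Edem2 and Sel1l, which hand glycoproteins to the ubiquitin ligase, did not overlap WT. Calr did not overlap WT either, so that with Fkbp11 and Atf6 the groups were apart for 6 members on the higher side (background 7.50%). Eif2ak3, the sensor PERK, was the 1 member with all D370Y libraries below WT (background 7.27%), at 199.8 ± 5.81 CPM against 218.6 ± 6.10. Atf4, translated when PERK is active, had a log2 fold change of -0.22 ± 0.08 (limma adjusted p 0.177).

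The D370Y libraries differed among themselves. Replicates 2 and 3 had the highest Ssr4, Sec61b, Sec11c, Fkbp11 and Edem2 of their group, and replicate 5 had the lowest Pdia4 (116 CPM, next 177) and Derl3. Summed over 10 plasma cell markers, replicates 2 and 3 held 3923 and 3599 CPM, the other D370Y libraries 1967 to 2796 and WT 2426 to 2762. Igj (Jchain) was the largest part of these sums, at 2457 and 2247 CPM in replicates 2 and 3. None of the 10 markers was at 0 in all libraries of a group, and 1 of them was called higher, Prdm1. In bulk libraries, more cells of a type and more RNA per cell cannot be told apart, and the part of plasma cells in these values was not tested. Summed myeloid markers were also higher in D370Y, at 41.5 to 57.6 CPM against 18.4 to 26.2, with 5 of 9 tested markers called higher; their part was not tested. Without D370Y replicate 5, limma called 6 members higher (Hsp90b1, Pdia4, Fkbp11, Edem2, Derl3 and Creb3l2), and without D370Y replicate 4 it called 2 (Hsp90b1 and Atf6). Over all genes tested it called 378 of 10560 and 473 of 10542 in either direction.

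The same contrast on the ImuBcl6 background, with 5 libraries a side, gave 5 called members. Pdia4, Sec11c, Ssr4 and Sec61b were higher in ImuBcl6 D370Y than in ImuBcl6, which is 4 of 44 where 2.80% of the 10784 genes tested were called higher. Herpud1 was lower, 1 of 44 against a background of 5.38%. Values were positive for 32 members and negative for 12, with a median of 0.13 over members and -0.01 over all genes, 47.9% of which were positive.

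Herpud1 (chr8:94386438-94395377, plus strand) encodes a membrane protein that organises the ERAD ubiquitin ligase and is itself short-lived. It measured 175, 204, 196, 179 and 204 CPM in ImuBcl6 D370Y and 216, 233, 239, 249 and 274 in ImuBcl6. Every D370Y library was below every control. The log2 fold change was -0.33 ± 0.07, with a limma adjusted p of 0.0128, and it stayed called under each alternative run for this comparison. Its promoter holds the element II and the shortened element printed above, the latter directly before the start.

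Pdia4 (chr6:47796141-47813430, minus strand), a disulfide isomerase with additional thioredoxin-like domains, measured 154, 204, 213, 179 and 174 CPM against 111, 134, 145, 142 and 156. The lowest D370Y library reached into the control range and the other 4 were above every control. The log2 fold change was 0.42 ± 0.10 (limma adjusted p 0.0242). Sec11c, a catalytic subunit of signal peptidase, measured 111, 133, 123, 113 and 119.9 CPM against 94.7, 99.0, 96.6, 99.4 and 111. Its groups touched without overlap, at a log2 fold change of 0.26 ± 0.06 (limma adjusted p 0.0260).

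Ssr4 (chrX:73787028-73790830, plus strand), a subunit of the translocon-associated protein complex, measured 76.5, 91.6, 99.4, 85.3 and 80.1 CPM against 57.4, 68.5, 61.0, 76.5 and 77.2. It had a log2 fold change of 0.34 ± 0.09 (limma adjusted p 0.0421), and the groups overlapped. No other called member lies on a sex chromosome. Sec61b (chr4:47474658-47483242, plus strand), a small tail-anchored subunit of the translocon, measured 46.8, 50.4, 48.1, 42.1 and 45.8 CPM against 36.7, 43.1, 33.7, 40.8 and 38.9. The groups overlapped at 1 D370Y library, and the log2 fold change was 0.27 ± 0.07 (limma adjusted p 0.0436).

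Across the roles, all 4 signal peptidase genes were on the higher side at an unadjusted p below 0.05, with a median log2 fold change of 0.18 (background 9.79%); Spcs2 has an annotated pseudogene with which reads could be shared. All 6 isomerases were positive (median 0.23), as were 8 of 10 chaperones (median 0.16) and 8 of 9 translocation genes (median 0.09). The ERAD genes divided, 4 positive and 4 negative, and the sensors had a median of -0.05. Among members not called, Pdia3 was above ImuBcl6 in every library at 0.19 ± 0.06 (limma adjusted p 0.0744). With Sec11c this made 2 members apart on the higher side (background 3.32%). Sec24d was below ImuBcl6 in every library at -0.33 ± 0.10 (limma adjusted p 0.0628), and with Herpud1 made 2 on the lower side (background 5.64%).

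The calls of higher members rested on few libraries. Without ImuBcl6 D370Y replicate 2, or without replicate 3, only Herpud1 remained called. Without ImuBcl6 D370Y replicate 5, ImuBcl6 replicate 2 or ImuBcl6 replicate 3 there were 2 called members, and without ImuBcl6 replicate 4 there were 3. Over all genes tested, the calls also fell in these fits, from 882 to between 434 and 675. ImuBcl6 D370Y replicate 2 had the highest sum over the 44 members, 10137 CPM against 8696 to 9378 in the other 4, and the highest sum of plasma cell markers, 3030 CPM against 1991 to 2364. Igj made up 1968 CPM of that 3030. In ImuBcl6 the plasma cell marker sum was 1989 to 2195 CPM, and 3 of 9 tested plasma cell markers were called higher with D370Y (Ly6c2, Tnfrsf13b and 2010001M09Rik). Myeloid markers summed to 36.5 to 59.5 CPM against 20.6 to 25.7, with 5 of 7 tested called higher. The part of either marker list in the members' values was not tested.

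**Figure D2:**
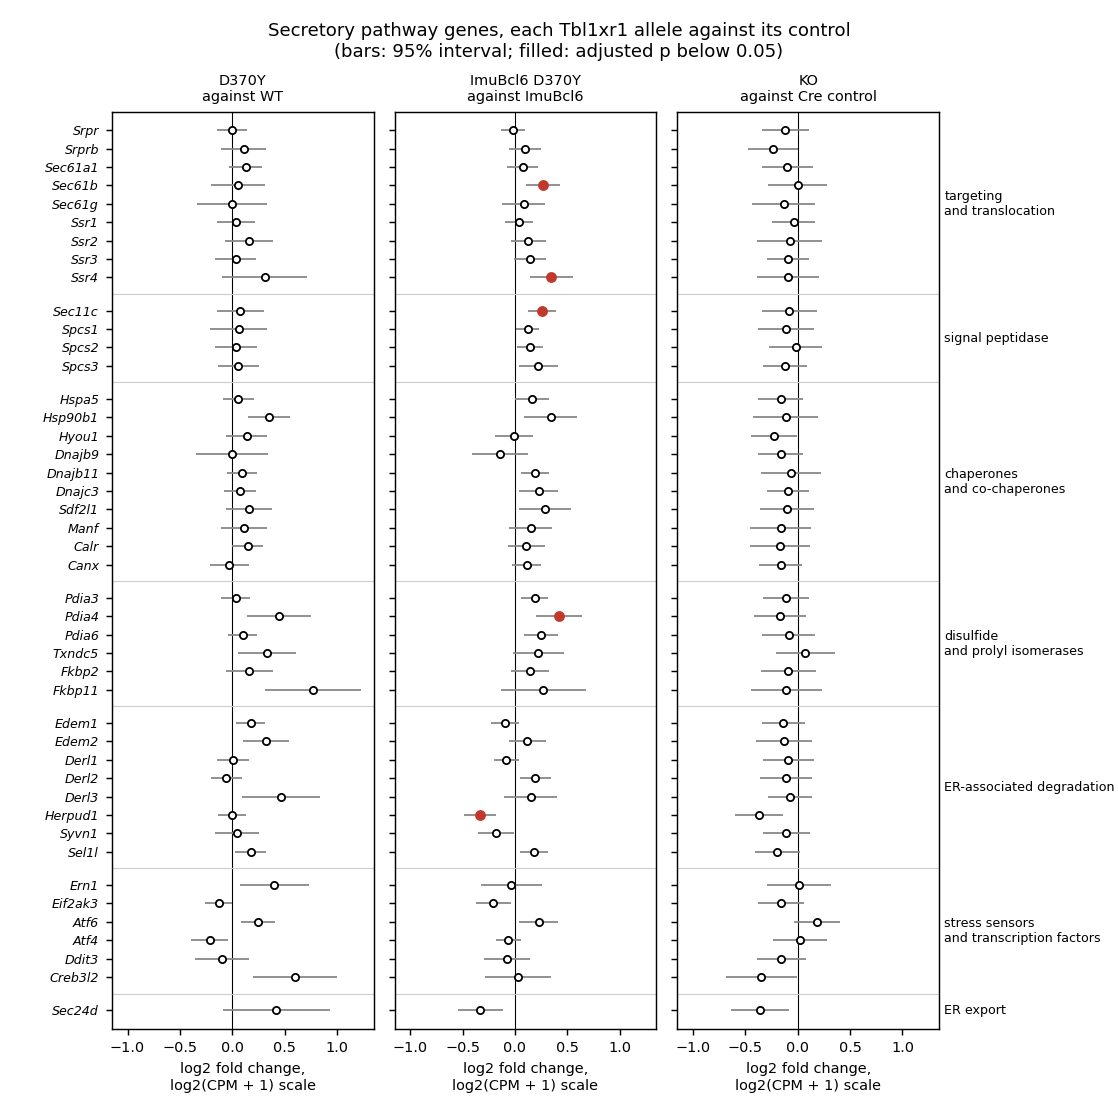
Log2 fold change of the 44 members, on the log2(CPM + 1) scale, for each Tbl1xr1 allele against its control, with 95% intervals, ordered by role. Filled points passed the adjusted threshold. There are 5 of them, all in the ImuBcl6 comparison, and the values lean to the right of 0 in both D370Y panels and to the left in the KO panel.

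The libraries labelled KO gave no called member by limma against the Cre control, where 1.39% of all 10514 genes tested were called in either direction. At an unadjusted p below 0.05 there were 0 members higher (background 2.55%) and 4 lower (background 6.50%), namely Herpud1, Sec24d, Hyou1 and Creb3l2. edgeR's quasi-likelihood test and DESeq2 each called 1 member lower, Herpud1. Over all genes tested they called 238 and 455 in either direction. Values were negative for 40 of 44 members, at a median of -0.11 against -0.06 over all genes, 30.2% of which were positive. That lean moved with KO replicate 3 and with the scaling: it was 36 of 44 under TMM, and 25 of 44 with a median of -0.03 without KO replicate 3. It was 42 of 44 with the pattern of sex-linked transcripts as a covariate, at a median of -0.19 against -0.10 over all genes.

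Herpud1 measured 195, 199, 147, 187 and 190.5 CPM in the libraries labelled KO and 211, 230.1, 229.8, 261 and 252 in the Cre control. It was the 1 member whose groups did not overlap on the lower side (background 3.49%), and no member was apart on the higher side (background 0.742%). The log2 fold change was -0.37 ± 0.11, with a limma adjusted p of 0.139. Without KO replicate 3 it was -0.29 at an adjusted p of 0.0151, and with CPM recomputed over listed genes only it was -0.30 at 0.0137. With the pattern of sex-linked transcripts as a covariate it was -0.43 at an adjusted p of 0.0541. Sec24d, the COPII adaptor, measured 13.4, 11.4, 10.1, 10.9 and 10.3 CPM against 10.9, 17.3, 13.1, 14.1 and 18.9, a log2 fold change of -0.36 ± 0.13 (limma adjusted p 0.308). Hyou1, the large HSP70-like chaperone of the ER, measured 207, 188, 150.5, 163 and 183 CPM against 198, 207, 210.0, 207 and 219.6, at -0.23 ± 0.10 (limma adjusted p 0.505). The groups of both genes overlapped. Plasma cell markers summed to 1277 to 2229 CPM in the libraries labelled KO and 1871 to 2310 in the Cre control, with 1 of 9 tested called lower (Slpi), and their part was not tested.

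**Figure D3:**
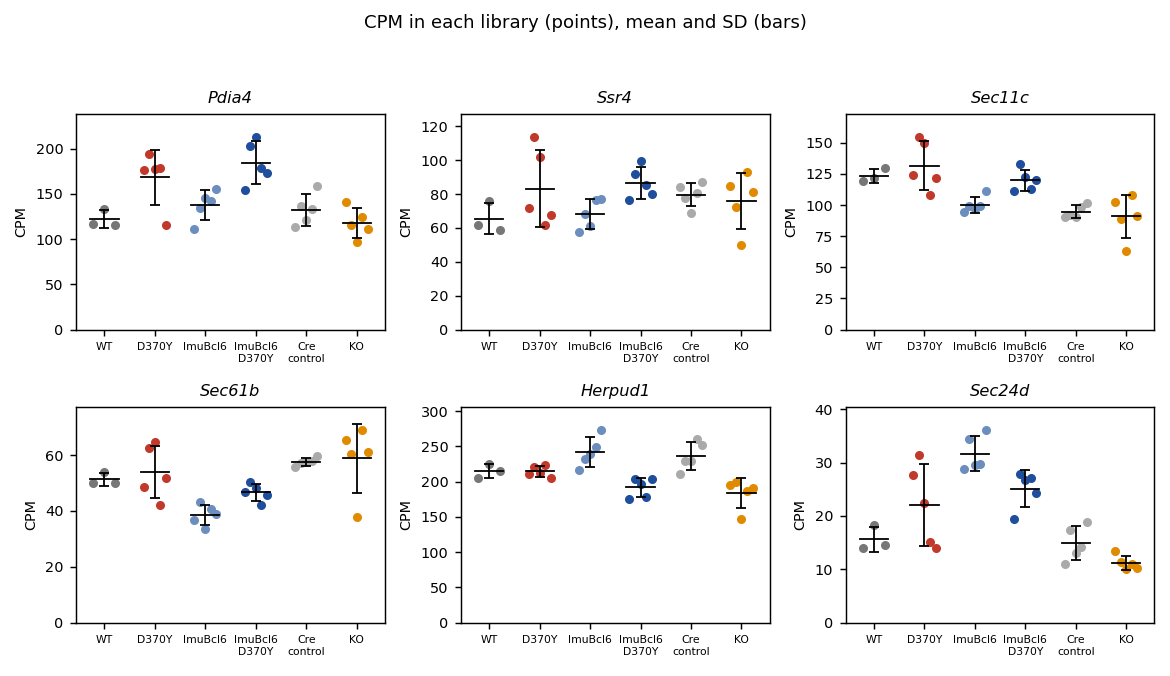
CPM of the 5 members called on the ImuBcl6 background, and of Sec24d, in each library (points) of the 6 groups, with mean and SD (bars). Herpud1 lies below its control in every ImuBcl6 D370Y library and every library labelled KO, while D370Y and WT share 1 range, 205 to 225 CPM.

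Herpud1 had a log2 fold change of -0.33 ± 0.07 on the ImuBcl6 background, -0.37 ± 0.11 in the libraries labelled KO, and in D370Y against WT an interval from -0.14 to 0.13. The difference of the D370Y effect with and without ImuBcl6 was -0.33 ± 0.10, with a limma adjusted p of 0.133, and so did not pass. It was the smallest p among the members in that test, followed by Edem1 at -0.27 ± 0.09 (adjusted p 0.180) and Sec24d at -0.75 ± 0.26 (adjusted p 0.229). Sec24d measured 27.6, 31.4, 22.4, 15.1 and 13.9 CPM in D370Y and 13.9, 18.2 and 14.6 in WT, and 19.4, 27.9, 26.8, 27.1 and 24.4 in ImuBcl6 D370Y and 28.9, 34.4, 29.5, 29.7 and 36.1 in ImuBcl6. D370Y replicates 1 to 3 were above WT, while all ImuBcl6 D370Y libraries were below ImuBcl6. In all, limma, edgeR and DESeq2 called 0 members in this difference (0.663% of 11166 genes tested were called by limma). At an unadjusted p below 0.05 limma gave 5 members (background 12.3%), 1 on the higher and 4 on the lower side. Y-linked transcripts exceeded Xist in all WT and no D370Y libraries, but in all ImuBcl6 D370Y and no ImuBcl6 libraries. Depth was 19.0 to 22.2 M reads in D370Y and WT and 31.8 to 37.7 M in the ImuBcl6 pair. In this difference the ImuBcl6 background cannot be told apart from sex or from the set of libraries.

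The KO effect minus the D370Y effect likewise had 0 called members by limma, edgeR and DESeq2, where limma called 0.145% of 11041 genes tested. At an unadjusted p below 0.05 there were 12 members, all with a lower KO effect (background 6.14% in either direction), and the values were negative for 43 members. The median was -0.20, against -0.05 over all genes, 36.8% of which were positive. TMM scaling moved the median of all genes to 0.04 and that of the members to -0.12, with 36 members negative. The 3 smallest p belonged to Creb3l2, a transmembrane transcription factor of secretory cells, at -0.95 ± 0.27 (limma adjusted p 0.211), Pdia4 at -0.61 ± 0.19 (0.287) and Fkbp11 at -0.88 ± 0.28 (0.343). Creb3l2 measured 6.93, 9.98, 7.75, 5.88 and 4.25 CPM in D370Y and 4.09, 4.39 and 3.81 in WT, and 4.22, 2.95, 3.86, 3.05 and 1.99 in the libraries labelled KO and 2.91, 4.98, 3.72, 4.69 and 5.43 in the Cre control. Without D370Y replicate 5, limma called 3 members (Pdia4, Derl3 and Creb3l2), and 63 of 11027 genes in all. The 2 effects come from sets of libraries with different protocol texts and different patterns of sex-linked transcripts, and direction rests on the KO label.

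Neither the central chaperone nor any of the 3 sensors passed limma's adjusted threshold in an allele comparison. Hspa5, which holds the sensors inactive by binding them, measured 650.1 ± 35.0 CPM in D370Y and 623.8 ± 36.3 in WT, 795.6 ± 92.1 and 706.7 ± 35.0 in the ImuBcl6 pair, and 378.4 ± 36.3 and 423.2 ± 24.3 in the libraries labelled KO and the Cre control (SD). The log2 fold changes were 0.06 ± 0.07, 0.16 ± 0.07 and -0.16 ± 0.10 in that order, with limma adjusted p of 0.685, 0.199 and 0.745. Hsp90b1 on the ImuBcl6 background was 604.2 ± 124 CPM against 470.8 ± 36.4, at 0.34 ± 0.12 (limma adjusted p 0.0926), close to its value without the allele. In the libraries labelled KO it was 161.6 ± 34.1 CPM against 173.4 ± 27.3.

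Atf6 was the sensor with positive values in all 3 allele comparisons, none of them called by limma. In D370Y against WT it was called higher by DESeq2, with library weights, with a replicate block and without D370Y replicate 4. The same held with CPM recomputed over listed genes only (limma adjusted p 0.0415). It had 0.23 ± 0.09 on the ImuBcl6 background (limma adjusted p 0.125) and 0.19 ± 0.10 in the libraries labelled KO (limma adjusted p 0.689). Eif2ak3 was negative in all 3, at -0.13 ± 0.06, -0.21 ± 0.08 and -0.16 ± 0.10 in the same order, with limma adjusted p of 0.271, 0.114 and 0.751. Ern1 mRNA was scarce in every library, from 2.14 to 8.18 CPM, and its value in D370Y against WT was 0.40 ± 0.15 (limma adjusted p 0.181). Atf4 measured 303.7 ± 15.6 CPM in ImuBcl6 D370Y against 317.4 ± 17.4 and 330.7 ± 54.7 in the libraries labelled KO against 322.1 ± 20.0. Ddit3, the factor that links long ER stress to cell death, stayed between 6.37 and 15.5 CPM, with log2 fold changes of -0.10 ± 0.12, -0.07 ± 0.10 and -0.16 ± 0.11. No limma adjusted p of Ddit3 was below 0.687.

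Xbp1, which is not among the 44, measured 269.8, 323, 312, 229 and 192 CPM in D370Y and 221, 255 and 220.4 in WT, with D370Y replicates 2 and 3 highest. Its log2 fold change was 0.17 ± 0.15 there, -0.03 ± 0.09 on the ImuBcl6 background and -0.32 ± 0.12 in the libraries labelled KO, with limma adjusted p of 0.584, 0.871 and 0.278. The tables hold 1 value per gene, so spliced and unspliced Xbp1 mRNA were not separated, and neither phosphorylation of PERK nor cutting of ATF6 is visible in mRNA levels. The 8 members with a full ER stress element and the 28 without had similar medians in the allele comparisons. They were 0.09 and 0.08 in D370Y against WT, 0.16 and 0.12 on the ImuBcl6 background, and -0.11 and -0.11 in the libraries labelled KO. Between sets of libraries the medians were 0.06 and 0.06 in ImuBcl6 against WT, but -0.31 and 0.08 in the Cre control against WT. The cause was not tested. The 28 include Pdia3, Pdia4, Derl2 and Herpud1, which matched the element without its final base, a base that was not read for Herpud1.

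**Figure D4:**
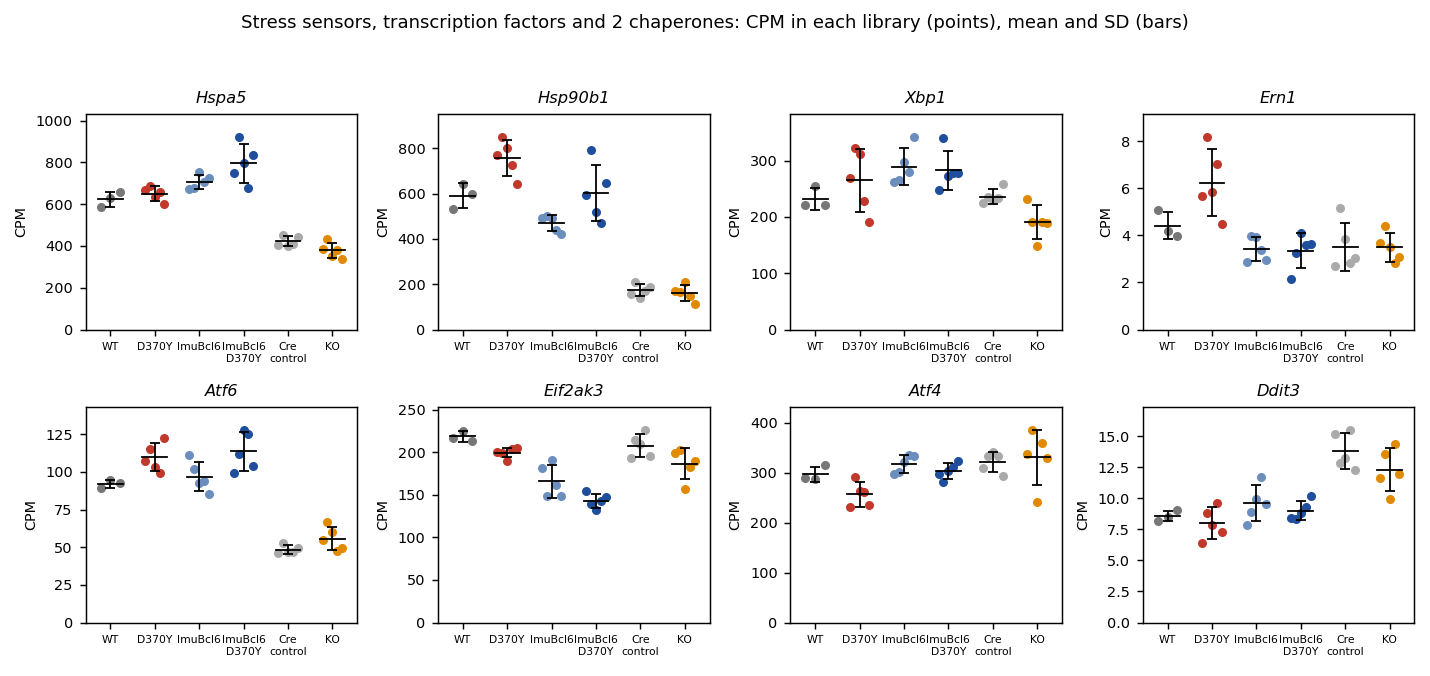
CPM of Hspa5, Hsp90b1, Xbp1 and 5 sensors or transcription factors in each library (points), with mean and SD (bars), in 6 groups. Ern1 and Ddit3 are the low genes, and Hspa5, Hsp90b1 and Atf6 sit lower in the Cre control and KO groups than in the other groups.

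Differences between sets of libraries were larger than those between alleles. ImuBcl6 against WT called 13 of 44 members higher (background 24.7%) and 10 lower (background 28.6%) by limma, with 10889 genes tested. The members' share was near the background on either side. Sec61g, the small translocon subunit, had the largest value, at 10.1, 9.53, 9.49, 9.78 and 9.42 CPM in ImuBcl6 and 1.20, 0.861 and 1.02 in WT, a log2 fold change of 2.40 ± 0.10. Sec24d rose by 0.98 ± 0.11, Calr by 0.65 ± 0.09, Txndc5 by 0.54 ± 0.09, Hyou1 by 0.51 ± 0.08, Srpr by 0.46 ± 0.05 and Dnajb11 by 0.30 ± 0.07. Fkbp11, Spcs3, Sec61b, Derl2 and Ssr3 were lower, at -0.84 ± 0.16, -0.64 ± 0.08, -0.41 ± 0.08, -0.39 ± 0.08 and -0.33 ± 0.06. Limma adjusted p values of these 12 members ran from 4.02e-09 to 0.00257. The chaperones thus divided, with 5 of 10 higher and 2 lower, Hsp90b1 (-0.33 ± 0.08) and Dnajc3 among the latter. Plasma cell markers summed to 1989 to 2195 CPM in ImuBcl6 and 2426 to 2762 in WT, with 5 of 9 tested called lower and 1 higher, and 6 of 12 germinal center markers were called lower and 2 higher. Their part was not tested. Depth (31.8 to 36.5 M reads against 19.0 to 19.4 M) and Y-linked transcripts (above Xist in 0 of 5 against 3 of 3 libraries) differed between these groups as well, and genotype cannot be told apart from them.

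The Cre control and WT share 1 genotype label, but they belong to different sets of libraries. Limma called 15 members higher (background 38.3%) and 14 lower (background 38.9%) of 10720 genes tested. Sec61g was again far higher, at 11.8, 10.7, 9.59, 9.16 and 11.4 CPM in the Cre control, a log2 fold change of 2.50 ± 0.11. Hsp90b1 was at 158, 210.5, 139, 172 and 188 CPM in the Cre control, against 534, 641 and 600.0 in WT, a log2 fold change of -1.77 ± 0.12. Also lower were Spcs3 at -1.26 ± 0.07, Dnajc3 at -1.19 ± 0.07, Ssr3 at -0.93 ± 0.05, Atf6 at -0.91 ± 0.06, Dnajb9 at -0.87 ± 0.09, Ssr1 at -0.71 ± 0.05, Canx at -0.72 ± 0.05, Pdia3 at -0.71 ± 0.05 and Hspa5 at -0.56 ± 0.05, while Hyou1 was higher at 0.51 ± 0.05. Limma adjusted p values of these 12 members were at most 5.57e-07. Of 11 tested myeloid markers 10 were called higher in the Cre control, with summed levels of 100.5 to 149 CPM against 18.4 to 26.2. Y-linked transcripts exceeded Xist in 1 of 5 against 3 of 3 libraries, and depth was 30.0 to 32.0 M reads against 19.0 to 19.4 M. The part of these in the members' values was not tested. Both comparisons use the WT libraries.

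**Figure D5:**
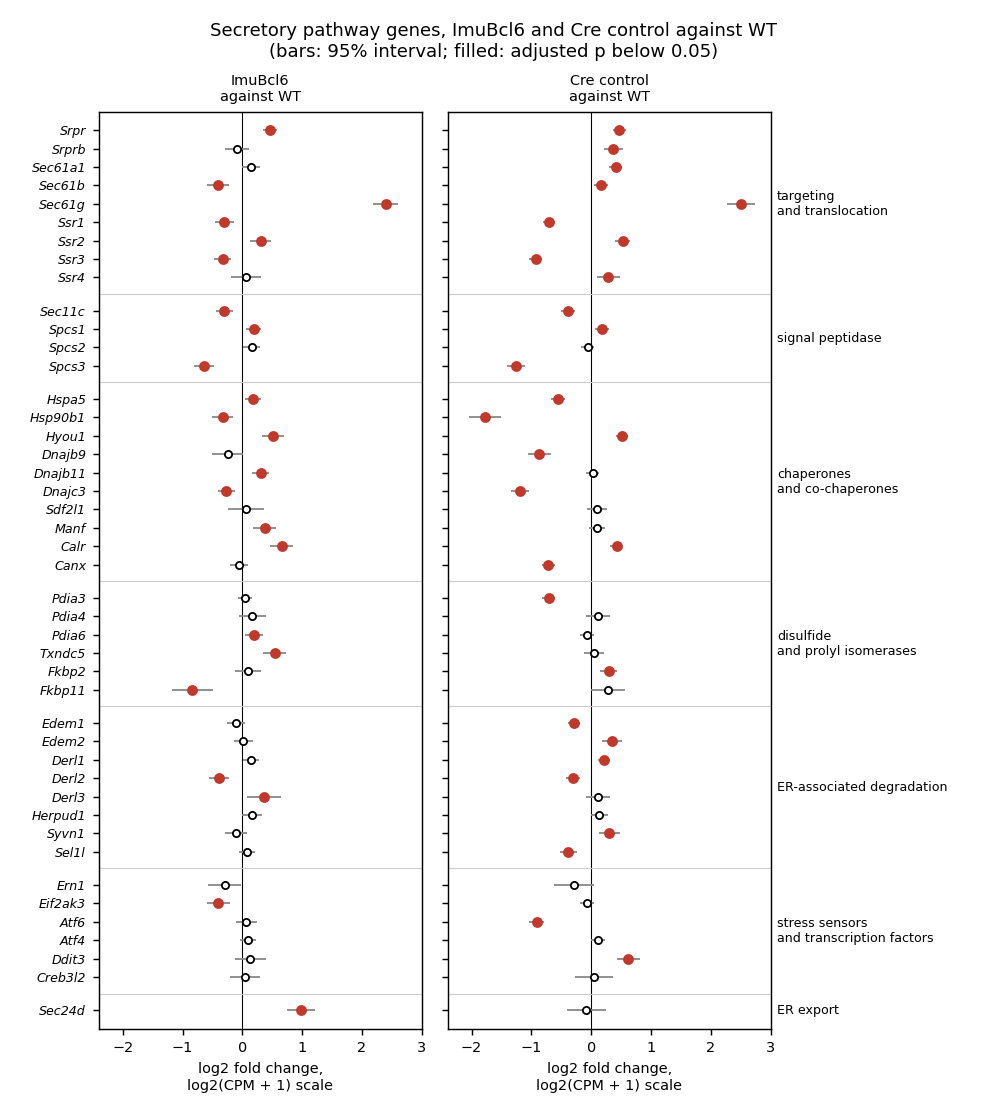
Log2 fold change, on the log2(CPM + 1) scale, of the 44 members in ImuBcl6 and in the Cre control, each against WT, with 95% intervals; filled points passed the adjusted threshold. Sec61g lies at 2.40 and 2.50, and Hsp90b1 has the lowest value of the right panel.

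The rest of the pathway was examined in 7 lists of 117 distinct genes outside the members. In ImuBcl6 D370Y against ImuBcl6, limma called 2.80% of all genes tested higher and 5.38% lower, and 47.9% of all genes had positive values. On the ImuBcl6 background Srp19 (0.26 ± 0.06) and Srp9 (0.24 ± 0.05), protein subunits of the signal recognition particle, were higher with D370Y, 2 of 12 tested genes of targeting and translocation, and all 12 had positive values. Ostc, a subunit of the oligosaccharyltransferase that adds N-glycans, was higher (0.23 ± 0.06), 1 of 16. Among 15 further ERAD genes H47, the selenoprotein also called Vimp, was higher (0.28 ± 0.07) and Ube2j1, the ubiquitin-conjugating enzyme of the ER membrane, was lower (-0.28 ± 0.06). Txndc11, a disulfide isomerase-like protein, was lower (-0.26 ± 0.06), 1 of 17 folding factors. Sec24a (-0.29 ± 0.07) and Sec24b (-0.28 ± 0.08), paralogs of Sec24d, were lower, 2 of 24 genes of early secretory traffic. Limma adjusted p values of these 8 genes ran from 0.00983 to 0.0433.

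In D370Y against WT the lists gave called genes only among 9 plasma cell regulators, by limma, where 3.55% of all genes were called in either direction. Irf4 was higher at 0.52 ± 0.09 (adjusted p 0.00779) and Prdm1, the repressor that starts plasma cell differentiation, at 1.07 ± 0.26 (adjusted p 0.0466), from 11.2 ± 3.22 to 25.3 ± 9.05 CPM. With ImuBcl6 the regulators gave 2010001M09Rik (Mzb1), an ER chaperone of antibody assembly, higher at 0.26 ± 0.06, and the coactivator Pou2af1 lower at -0.31 ± 0.06. In the libraries labelled KO Fam46c was lower at -0.56 ± 0.11 (adjusted p 0.0139), where 1.39% of all genes were called in either direction. None of the other unfolded protein response and integrated stress response genes passed limma's adjusted threshold in any of the 3 allele comparisons. Of 19 tested in D370Y against WT, 2 had a higher value (background 10.2%) and 3 a lower (8.16%) at an unadjusted p below 0.05. On the ImuBcl6 background it was 2 (background 9.79%) and 2 (14.1%) of 18, and in the libraries labelled KO 0 (background 2.55%) and 5 (6.50%) of 19.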

How the data were processed

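Trizol and an RNeasy kit yielded the total RNA, per the labels' protocols, which name a TruSeq stranded kit for KO and Cre control alone. The submitters' processing notes name STAR and mm10, without versions. The sources used here do not give the counting tool, strand setting or annotation, so reads of overlapping, antisense or near-identical genes may be shared.

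The authors deposited CPM per gene symbol, 1 table per library. All values were whole multiples of 1 read (100% within 0.01 read), and the count tests used these recovered reads. log2(CPM + 1) was fitted with limma 3.58.1 (R 4.3.3; mean-variance trend, robust moderation) on genes with a CPM of at least 1 in as many libraries as the smallest group. Each allele was fitted with its own control, and differences between effects in a fit of 4 groups. Tests were two-sided, adjusted by Benjamini-Hochberg over all genes tested, and called below 0.05. Intervals are 95%.

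Alternatives were a pseudocount of 0.25, no filter, CPM recomputed over listed genes only, TMM scaling, edgeR 4.0.16, DESeq2 1.42.0, all 28 libraries in 1 fit, library weights, a replicate block, a sex-linked covariate and leaving out each library. The fitting code was tested on simulated data. No pairing by replicate number was evident: same-numbered libraries correlated from -0.28 to 0.51 in their deviations from group means. With 3 to 5 pairs per comparison this cannot exclude pairing.

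Members and lists were chosen with earlier results of these data known. Full values were given for called members (at most 12 per comparison by adjusted p), for the 3 smallest p where none was called, for Hspa5, Hsp90b1, Ern1, Atf6, Eif2ak3, Atf4, Ddit3, Xbp1 and Tbl1xr1, and for up to 4 called genes of each of 7 pathway lists. Members outside this rule (Edem1, Edem2, Sel1l, Calr, Txndc5, Pdia3, Derl3, Sec24d on the ImuBcl6 background) were named after their values were seen. Lists were matched by older symbols where needed (1810006K21Rik for Tmem258, H47 for Vimp, 2010001M09Rik for Mzb1, Fam46c for Tent5c, Igj for Jchain). Coordinates of genes are from GENCODE M21 and promoters from RefSeq, both on GRCm38.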

Additional observations from a re-analysis of the deposited data

Results flagged for a closer look

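In 30 members with full values or a value near the threshold, 150 sets of 5 libraries were screened for a library whose gap to its nearest neighbour exceeded 0.71 of the set's range, which chance gives in about 1 of 20 sets. There were 6 such values, 2 of them in KO replicate 3, the library with the smallest share of reads on listed genes. In that library Herpud1 was low at 147 CPM, next to 187 in the nearest library, and Sec61b was low at 37.8 CPM. D370Y replicate 5 was low for Pdia4 at 116 CPM. On the ImuBcl6 background without D370Y, replicate 3 was high for Creb3l2 at 5.27 CPM, replicate 4 was low for Pdia3 at 628 CPM and replicate 5 was high for Sec11c at 111 CPM. The cause of these values was not tested.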

How the results depend on the processing

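Of 60 gene results, 1147 alternative values were computed. The side of the threshold held in 1082, 30 lost and 35 gained a call. 0 called values changed sign, and 15 values called in neither fit did. In D370Y against WT, 0 members were called, but 2 with CPM over listed genes only, 1 with TMM, 1 with edgeR, 8 with DESeq2, 9 with library weights and 0 to 6 with 1 library left out. In ImuBcl6 D370Y against ImuBcl6, 5 members were called, against 3 without a filter, 12 with DESeq2, 2 with all 28 libraries in 1 fit, 11 with library weights and 1 to 6 with 1 library left out. Over all genes tested it was 882 of 10784. The same settings called 679 of 16622, 1378 of 10784, 808 of 11312 and 1230 of 10784, and 434 to 1016. For the libraries labelled KO, 0 members were called, against 1 with CPM over listed genes only, with TMM, edgeR, DESeq2 or all 28 libraries, 3 with library weights (Txndc5 higher, Hspa5 and Herpud1 lower) and 0 to 1 with 1 library left out. Over all genes tested it was 146 of 10514, and 1111 with library weights. The settings just listed with 1 called member gave 239 of 10691, 243, 238 and 455 of 10514, and 279 of 11312. Leaving out 1 library gave 87 to 449 called genes. An alternative chosen after seeing the data used CPM over listed genes only without KO replicate 3. It gave 1 called member for the libraries labelled KO (492 of 10729 genes) and 1 for the KO effect minus the D370Y effect (39 of 11204). The latter effect had 0 called members, against 4 with library weights (211 of 11041 genes) and 0 to 3 with 1 library left out (7 to 63 genes). The D370Y effect with minus without ImuBcl6 had 0, against 2 with library weights (197 of 11166 genes). The cause of these changes was not tested. ImuBcl6 and the Cre control against WT had 23 and 29 called members, and 19 to 30 and 28 to 31 with 1 library left out. Over all genes tested they had 5802 of 10889 and 8276 of 10720 called. With 1 library left out it was 4525 to 6417 and 7759 to 8403.

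A replicate block, though no pairing by number was evident, gave 11 called members in D370Y against WT, 9 on the ImuBcl6 background and 0 for the libraries labelled KO. Over all genes tested it called 764 of 10600, 1000 of 10784 and 183 of 10514. Of 3, 5 and 5 pairs, 1 in each comparison correlated best with its own number.

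Genes near 1 CPM rest on few reads, such as Sec61g in the shallow WT and D370Y libraries. Fkbp11 was near that level in ImuBcl6 (0.561 to 1.20 CPM) and ImuBcl6 D370Y (0.461 to 2.20 CPM), and at 1.68 to 2.84 CPM in WT.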

Other observations

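Other cell types were examined by marker lists. T cell markers gave 0 of 3 called by limma in D370Y against WT, 2 of 4 higher on the ImuBcl6 background and 0 of 3 in the libraries labelled KO. Stroma and endothelium gave 0 of 2, 1 of 2 higher and 0 of 2, with Col1a1, Col1a2, Col3a1 and Kdr at 0 in WT. Erythroid markers summed to 2.46 to 46.3 CPM, with Hba-a1 and Hba-a2 at 0 in every library. Germinal center markers gave 1, 2 and 1 of 12 called lower in the same order. Of all genes, limma called 3.55% in either direction in D370Y against WT and 1.39% in the libraries labelled KO. On the ImuBcl6 background it called 2.80% higher and 5.38% lower.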
